A study of Mus musculus with 2 samples.

Results

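The 31 genes described here encode transcription factors and cofactors that set or keep the identity of hypothalamic neurons, and they were chosen by name from 29809 genes with a row in either library. They were read in neurons, meaning cells with at least 300 genes, at most 20% mitochondrial UMIs (unique molecular identifiers, each counting 1 captured RNA molecule) and at least 2 of 7 pan-neuronal genes (Snap25, Syt1, Stmn2, Stmn3, Elavl4, Tubb3, Snhg11). This kept 720 neurons of 1800 barcodes in the Irx3/5dHet library and 911 of 2800 in the WT library. The RNA came from the arcuate nucleus and median eminence of CD-1 mice aged 7 to 8 weeks, dissected, dissociated, sorted for live cells and captured by Drop-seq, in which a barcoded bead shares a droplet with a cell and only 3' ends are read. The Irx3/5dHet library pooled 5 mice of genotype Irx3/5+/-, heterozygous for the Iroquois factors Irx3 and Irx5, with no source used here naming the altered part of each allele, and the WT library pooled 7 wild type mice. The study asked how Irx3 and Irx5 bear on neurogenesis after birth and on the response to leptin, per its title. Cells cannot be assigned to single mice, so each genotype is 1 sample and no difference between them has a replicate check or a test. Genotype, the animals pooled, the dissection and the capture run cannot be told apart. Every interval below is 95% and covers counting error only, and fewer cells of a type and less RNA per cell cannot be told apart in summed counts.

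Hypothalamic neurons are sorted into kinds by combinations of such factors, most of them homeodomain, LIM, T-box, zinc finger or basic helix-loop-helix proteins that bind DNA. In the embryo they divide the hypothalamic field into territories, and in the adult many stay on in the peptide neurons they helped to specify. Arcuate neurons with Agrp and Npy drive feeding, those with Pomc restrain it, and those with Kiss1 and Tac2 control reproduction. Neurons with Vip, Prok2 and Nms are known from the suprachiasmatic nucleus, the circadian clock that lies in front of the arcuate nucleus.

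The neurons held 2010585 UMIs in the Irx3/5dHet library and 2247690 in the WT library, with a median of 1929.5 and 1803 UMIs per neuron. They were 48.5% (45.9% to 51.1%) of 1484 used Irx3/5dHet cells and 37.9% (35.9% to 39.9%) of 2405 used WT cells. The libraries shared 3 barcodes, 1 of them among the neurons. Markers of other cells differed within the neurons. Of the 10 lists of markers of other cell classes, 9 had a lower summed level in Irx3/5dHet neurons, such as 1631 against 3259 CPM (UMIs per 1e6 neuron UMIs) for 8 oligodendrocyte genes and 1038 against 1990 CPM for 9 tanycyte genes. The exception was the ependymal list, at 122 CPM in Irx3/5dHet and 79.2 CPM in WT neurons. At least 3 markers of a single other class were found in 80 Irx3/5dHet neurons (11.1%) and 177 WT neurons (19.4%). The part of these markers in the values below was not tested, apart from leaving such neurons out. Doublets were not removed, since a caller marked only 4 of 1484 Irx3/5dHet and 13 of 2405 WT cells. Irx3 had 1 UMI in Irx3/5dHet and 4 UMIs in WT neurons and Irx5 had 0 and 3, too few to check the labels.

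All 31 factors had at least 1 UMI in a neuron, and 29 had the 10 UMIs over both libraries that a ratio was given for. The 29 ran between 7 and 322 UMIs in Irx3/5dHet neurons and between 8 and 424 UMIs in WT neurons. The 31 factors together made up 1239 CPM of the Irx3/5dHet neurons and 1238 CPM of the WT neurons. The most abundant were the LIM homeodomain factor Isl1, at 160 CPM in Irx3/5dHet and 143 CPM in WT neurons, and the homeodomain factor Six3, at 138 and 189 CPM. Most detections were single molecules: 65.5% of the pairings of an Irx3/5dHet neuron with a factor rested on 1 UMI, and 60.5% of those in WT. A neuron without a UMI of a factor is therefore not shown to lack it.

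Below the limit of 10 UMIs were Nr5a1, the steroidogenic factor of ventromedial neurons, with 5 UMIs in 5 Irx3/5dHet neurons and 3 UMIs in 2 WT neurons, and the LIM factor Lhx9, with 3 UMIs in 2 Irx3/5dHet neurons and none in WT. Prdm12, a zinc finger factor known to be needed for Pomc expression, was at the low end of those measured, with 7 and 8 UMIs.

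Levels were given as CPM of the neurons' summed UMIs, and a ratio as log2 of Irx3/5dHet over WT after 0.5 was added to each count. Of the 29 factors, 2 were at least 2-fold higher in Irx3/5dHet neurons (Otp and Hmx2), where 3.58% of all 16271 genes with 10 UMIs were, and 1 was at least 2-fold lower (Foxb1), where 13.2% of all genes were. The ratio was above 0 for 14 factors and below it for 15. Its median was -0.02 over the 29 factors and -0.09 over all genes. The counting interval lay wholly above 0 for 6 of 29 factors (Tbx3, Otp, Bsx, Dlx6, Nhlh2, Hmx2), against 9.44% of all genes. It lay wholly below 0 for 4 (Lhx1, Six3, Foxb1, Zic1), against 17.1% of all genes, and held 0 for 19. Intervals are narrower for genes with more UMIs, and the factors and all genes were not matched for this.

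**Figure D1:**
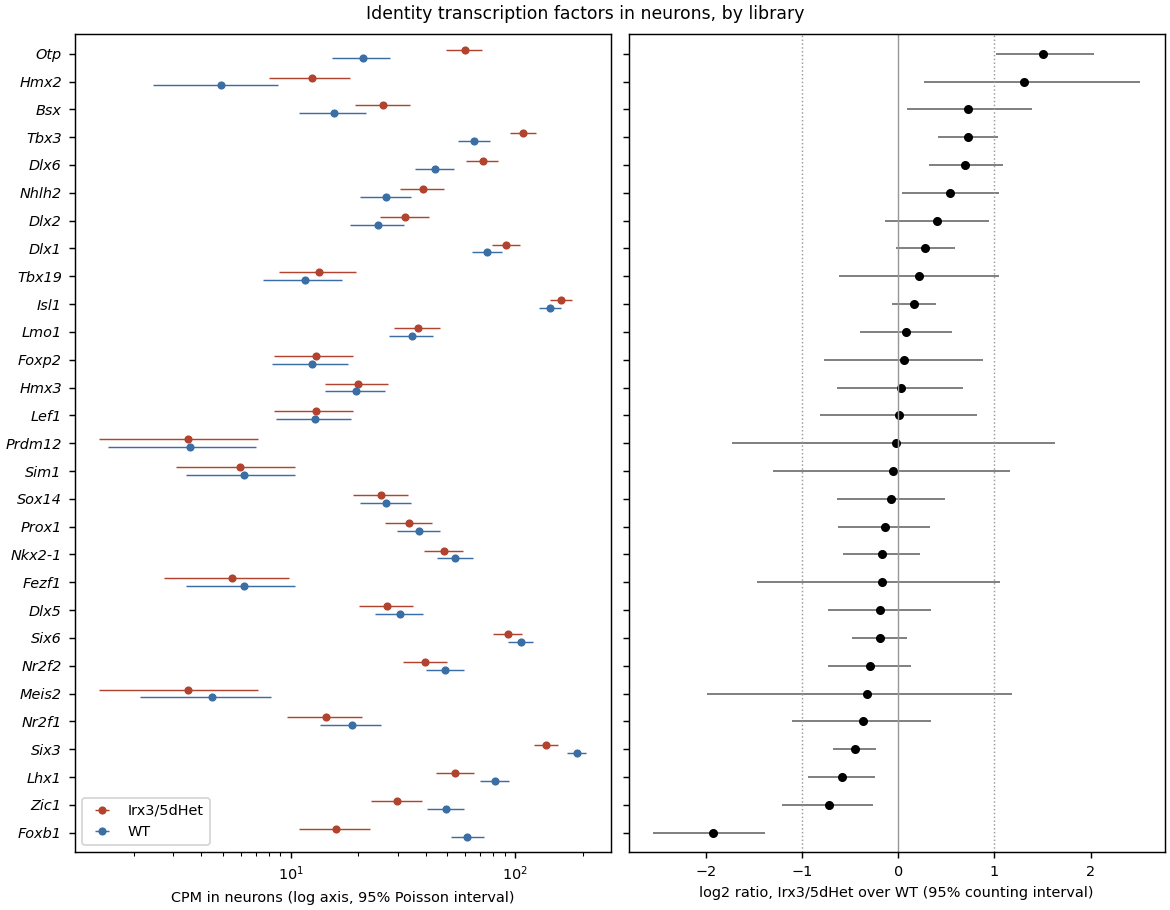
Level and ratio of the 29 measured factors. The left panel gives CPM in neurons on a log axis for the Irx3/5dHet library (red, upper point of each pair) and the WT library (blue, lower point) with Poisson intervals; the right panel gives the log2 ratio of Irx3/5dHet over WT with its counting interval, a line at 0 and dotted lines at 2-fold. Otp and Hmx2 lie past 2-fold on the right and Foxb1 past it on the left.

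Otp (ENSMUSG00000021685, plus strand of chromosome 13 from 94875602 to 94885130 in GRCm38), a homeodomain factor of neuroendocrine neurons, had 120 UMIs in 60 Irx3/5dHet neurons and 47 UMIs in 26 WT neurons. That was 59.7 CPM against 20.9 CPM, a log2 ratio of 1.50 (1.02 to 2.03). Of the neurons that held it, 31 of 60 in Irx3/5dHet and 10 of 26 in WT were Agrp or Npy neurons of the arcuate nucleus. A neuron was put in a peptide class at 3 or more UMIs of the peptide gene, and classes may overlap. Otp was found in 30 of 39 Agrp neurons of the Irx3/5dHet library and in 9 of 15 of the WT library. In all other neurons it was found in 4.41% and 1.90%. Agrp neurons were deeper than the rest, with medians of 6069 UMIs in Irx3/5dHet and 3502 in WT. If Otp and Agrp were paired at random within 10 strata of UMIs per neuron, 8.24 Irx3/5dHet and 0.89 WT neurons would hold both (the number given by depth, below). The observed 30 and 9 were above these numbers in both libraries.

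The Irx3/5dHet library held more Agrp or Npy neurons than the WT library, 46 of 720 against 19 of 911. Within these neurons Otp was at 293 CPM in Irx3/5dHet and 228 CPM in WT, a log2 ratio of 0.34 (-0.31 to 1.09). Outside them it was at 24.6 and 10.7 CPM, a ratio of 1.18 (0.43 to 1.99). The interval inside held 0 and that outside did not, and the difference between inside and outside was not tested. Somatostatin neurons held Otp in 22 of 55 Irx3/5dHet and 10 of 36 WT neurons, against 7.39 and 1.97 given by depth. Cartpt neurons (21 of 139 and 6 of 96) held it more often than other neurons, but depth gives 23.0 and 4.66. The Irx3/5dHet number was thus below that given by depth. Oxt neurons (4 of 13 and 2 of 25) also held Otp more often than other neurons, but not 2 times as often as depth gives in each library. Oxt was also in 7 of 76 Irx3/5dHet and 7 of 157 WT cells with oligodendrocyte markers, thinned to equal depth. Whether all neurons of the Oxt class make Oxt was not tested. With neurons of Agrp, Npy and Sst all set aside, Otp still had 28 UMIs in 631 Irx3/5dHet neurons and 14 UMIs in 862 WT neurons, a ratio of 1.28 (0.33 to 2.35).

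Tbx3 (ENSMUSG00000018604, plus strand of chromosome 5 from 119670669 to 119684724), a T-box factor that maintains the identity of arcuate peptide neurons, had 219 UMIs in 121 Irx3/5dHet neurons and 148 UMIs in 99 WT neurons, or 109 against 65.8 CPM. Its log2 ratio was 0.72 (0.42 to 1.04), and 1.11 as a mean over neurons. It was found in 15 of 22 Irx3/5dHet and 7 of 12 WT Pomc neurons, against 7.19 and 2.43 given by depth. Neurons with Crabp1, a retinoic acid binding protein, held it in 21 of 45 and 13 of 20, given without the number from depth. Crabp1 neurons were deeper than the rest, with medians of 3975 UMIs in Irx3/5dHet and 4125.5 in WT, against 1863 and 1754. Agrp neurons also held Tbx3 often, in 23 of 39 and 9 of 15. The Irx3/5dHet number was, however, less than 2 times the 12.7 given by depth. Inside Agrp, Npy and Pomc neurons its level was 202 CPM in Irx3/5dHet and 167 CPM in WT, a ratio of 0.26 (-0.36 to 0.95). Outside them it was at 88.2 and 57.4 CPM, a ratio of 0.62 (0.26 to 0.98). The intervals inside and outside overlapped.

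In Pomc neurons 2 further factors were found at least 2 times as often as depth gives in each library. Nkx2-1, the homeodomain factor that defines the ventral hypothalamus, was in 7 of 22 Irx3/5dHet and 5 of 12 WT Pomc neurons, against 3.46 and 2.15 given by depth. Most of its neurons were outside the Pomc class, which held 7 of 72 in Irx3/5dHet and 5 of 91 in WT. Nkx2-1 was also in 31 of 139 and 24 of 96 Cartpt neurons, against 20.2 and 15.3 given by depth. Crabp1 neurons held it in 13 of 45 and 9 of 20, given without the number from depth, and both classes may overlap with the Pomc class. Its level over all neurons was 48.2 against 54.3 CPM (log2 -0.17, -0.57 to 0.23). Prdm12 was in 4 of 22 and 1 of 12 Pomc neurons. The Irx3/5dHet library had 6 neurons with Prdm12 and the WT library 5, and none of its UMIs lay in a used cell outside the neurons. Isl1, which activates Pomc, was in 12 of 22 Irx3/5dHet and 4 of 12 WT Pomc neurons, against 8.26 and 3.66 given by depth. Neurons with Tac1, the substance P precursor, held it in 23 of 36 and 18 of 32, against 11.51 and 10.04 given by depth, and Crabp1 neurons in 21 of 45 and 15 of 20, against 13.5 and 5.70. Neither class reached 2 times the number given by depth in both libraries. Isl1 had 322 UMIs in each library, and its ratio was 0.16 (-0.07 to 0.39).

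Bsx, a homeodomain factor needed for Npy and Agrp expression, had 52 UMIs in 37 Irx3/5dHet neurons and 35 UMIs in 28 WT neurons, a log2 ratio of 0.73 (0.09 to 1.39). Only 6 of 39 Irx3/5dHet and 3 of 15 WT Agrp neurons had a UMI of it, and inside Agrp or Npy neurons it had 8 UMIs in Irx3/5dHet and 4 in WT. In neurons without a UMI of any oligodendrocyte marker or Rax, a setting chosen after the data were seen, the ratio of Bsx was 0.10. Prox1, a homeodomain factor best known from lymphatic vessels, was held by 12 of 39 Irx3/5dHet and 6 of 15 WT Agrp neurons, against 5.32 and 1.52 given by depth. Its level over all neurons was 33.8 CPM in Irx3/5dHet and 37.4 CPM in WT.

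Over all 19 peptide and marker classes with at least 20 neurons, 88 of 589 combinations of a class and a factor had a share of factor-holding neurons at least 2 times that of the other neurons in each library. Peptide neurons were deeper than the rest in most classes, so the rule was also run against depth strata, a choice made after the data were seen. Of the 88, 36 remained, covering 21 factors and 18 classes. Neither count was set beside the same count over all genes.

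**Figure D2:**
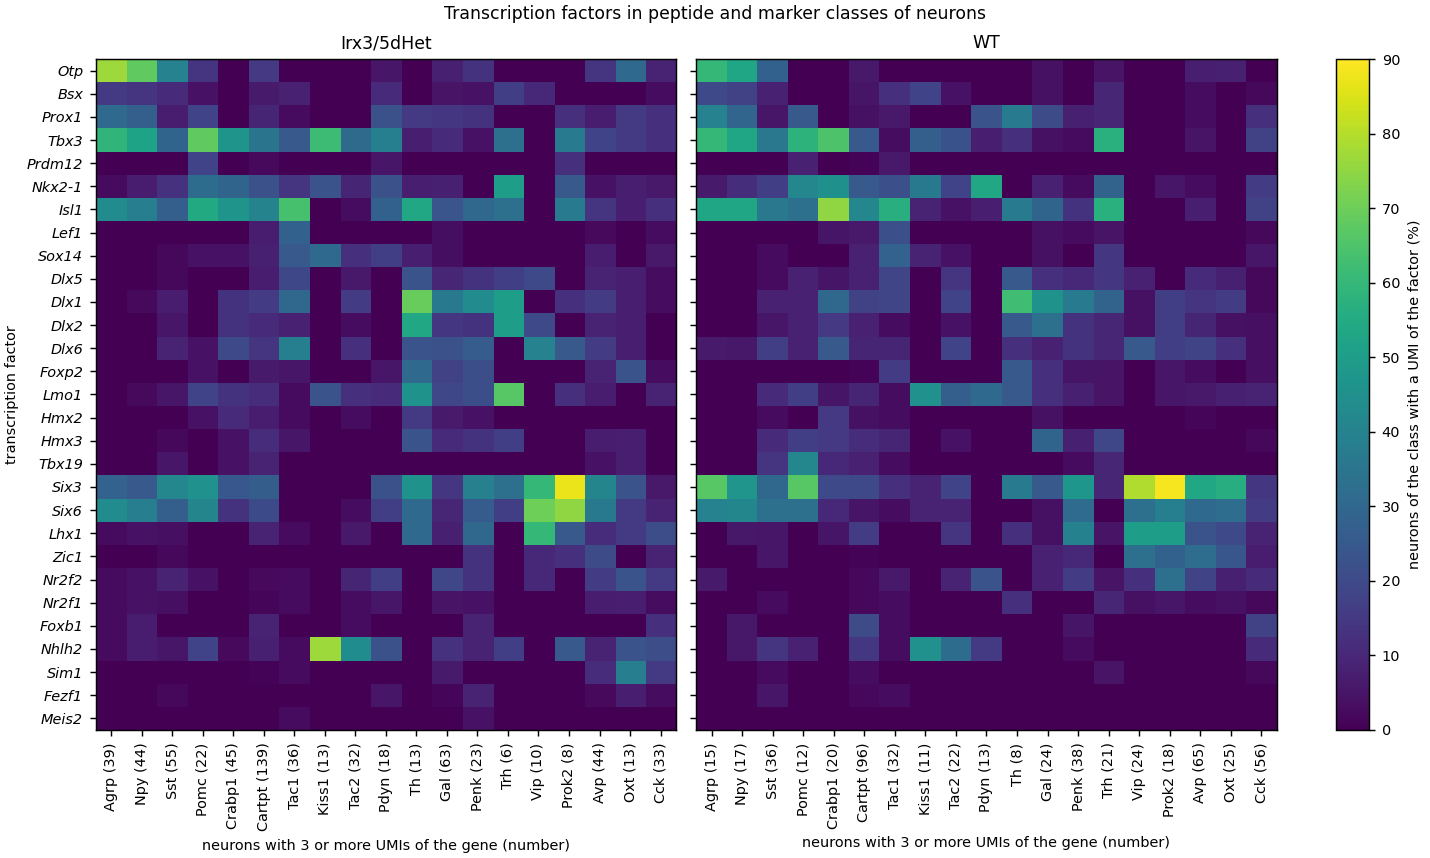
Share of neurons with a UMI of each factor (rows) in each peptide or marker class (columns, with the number of neurons of the class in brackets), for Irx3/5dHet on the left and WT on the right. The color runs between 0 and 90%. Otp is bright in the Agrp, Npy and Sst columns, Nhlh2 in Kiss1 and Tac2, Dlx1 in Th, and Six3 and Lhx1 in Vip and Prok2, in both panels.

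Kiss1 and Tac2 neurons often held Nhlh2, a basic helix-loop-helix factor whose loss in mice causes obesity and low fertility. Most neurons with Nhlh2 lay outside these classes, 27 of 42 in Irx3/5dHet and 32 of 39 in WT. It was found in 10 of 13 Irx3/5dHet and 5 of 11 WT Kiss1 neurons, against 1.07 and 0.64 given by depth, and in 14 of 32 and 7 of 22 Tac2 neurons. Nhlh2 had 78 UMIs in 42 Irx3/5dHet neurons and 60 UMIs in 39 WT neurons, a log2 ratio of 0.54 (0.04 to 1.05) that was 0.27 without neurons with any oligodendrocyte marker or Rax. Inside Kiss1 or Tac2 neurons it was at 441 against 205 CPM, a ratio of 1.08 (0.31 to 1.96). Outside them it was at 16.8 against 19.0 CPM, a ratio of -0.18 (-0.89 to 0.52), and the difference between inside and outside was not tested.

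Tac1 neurons held Lef1, a nuclear effector of Wnt signalling, and Sox14, an SRY-related factor. Lef1 was in 10 of 36 Irx3/5dHet and 7 of 32 WT Tac1 neurons, against 1.35 and 1.66 given by depth. Sox14 was in 9 of 36 and 9 of 32, against 2.36 and 2.32. Neither factor differed in level beyond counting error, with 26 and 29 UMIs of Lef1 (log2 0.01, -0.82 to 0.82) and 51 and 60 UMIs of Sox14 (log2 -0.07, -0.64 to 0.49) in the Irx3/5dHet and WT neurons.

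The Dlx genes encode homeodomain factors that drive the GABA fate in the forebrain, and they sit in pairs in the genome. Dlx1 and Dlx2 lie 9.43 kb apart on chromosome 2 and Dlx5 and Dlx6 lie 9.24 kb apart on chromosome 6. All 4 were measured. Dlx6 was at 71.6 CPM in Irx3/5dHet and 44.0 CPM in WT neurons, a log2 ratio of 0.70 (0.32 to 1.09) that was 1.31 as a mean over neurons, while the intervals of Dlx1 (0.28, -0.03 to 0.59), Dlx2 (0.40, -0.14 to 0.95, and -0.27 without neurons with any oligodendrocyte marker or Rax) and Dlx5 (-0.19, -0.73 to 0.34) held 0. Within GABA neurons alone Dlx6 was at 102 and 77.7 CPM, a ratio of 0.39 (-0.01 to 0.80). Neurons with Th, the rate-limiting enzyme of dopamine synthesis, held Dlx1 in 9 of 13 Irx3/5dHet and 5 of 8 WT neurons. Dlx2 was in 7 of 13 and 2 of 8 of them, and Foxp2, a forkhead factor with 26 UMIs in Irx3/5dHet and 28 in WT neurons (log2 0.06, -0.77 to 0.88), in 4 of 13 and 2 of 8. Neurons with the opioid precursor Penk held Dlx1 in 10 of 23 and 14 of 38. Th neurons were deeper than the rest, with medians of 4430 UMIs in Irx3/5dHet and 10244 in WT, against 1885 and 1783. Penk neurons were also deeper, at 4132 and 2791.5 UMIs against 1882 and 1741. The counts in Th and Penk neurons are given without the number that depth gives. Foxp2 was also in 11 of 63 Irx3/5dHet and 3 of 24 WT galanin neurons, against 2.47 and 0.99 given by depth.

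Hmx2 and Hmx3 are neighbouring homeodomain genes, 3.85 kb apart on chromosome 7, known for roles in Ghrh neurons and the inner ear. Hmx2 had 25 UMIs in 19 Irx3/5dHet neurons and 11 UMIs in 9 WT neurons, or 12.4 against 4.89 CPM (log2 1.31, 0.27 to 2.52). Its neighbour Hmx3 had 40 UMIs in 31 Irx3/5dHet and 44 UMIs in 31 WT neurons, a ratio of 0.02 (-0.63 to 0.67). The intervals of the neighbours overlapped. Both overlap Fgfr2 on the other strand, which had 11 UMIs in Irx3/5dHet and 28 in WT neurons. Crabp1 neurons held Hmx2 in 5 of 45 and 3 of 20, given without the number from depth. Tbx19, a T-box factor that switches on Pomc in pituitary corticotrophs, had 27 UMIs in Irx3/5dHet and 26 in WT neurons (log2 0.21, -0.62 to 1.05). It was found mostly in Cartpt neurons, in 12 of 139 Irx3/5dHet and 8 of 96 WT neurons, or 75.0% and 61.5% of all neurons that held it. In Pomc neurons Tbx19 was found in 0 of 22 Irx3/5dHet and 5 of 12 WT neurons.

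Several factors were found in neurons with the suprachiasmatic peptides. Six3, known from the developing eye and forebrain, was in 6 of 10 Irx3/5dHet and 19 of 24 WT Vip neurons and in 7 of 8 and 16 of 18 Prok2 neurons. Its sister Six6 was in 7 of 10 and 8 of 24 Vip neurons. Lhx1, a LIM homeodomain factor that keeps clock neurons coupled, was in 6 of 10 and 12 of 24. The zinc finger factor Zic1 was in 9 of 44 Irx3/5dHet and 21 of 65 WT vasopressin neurons, and in 1 of 10 and 8 of 24 Vip neurons. The vasopressin gene Avp was also in 6 of 76 Irx3/5dHet and 12 of 157 WT cells with oligodendrocyte markers, thinned to equal depth. Of the Avp UMIs in neurons, 1 neuron held 41.4% in Irx3/5dHet and 13.4% in WT. Neurons with Avp had only 1 UMI of it in 142 of 226 Irx3/5dHet and 107 of 187 WT cases. Whether all neurons of the vasopressin class make Avp was not tested. Vip neurons had a median of 1975.5 UMIs in Irx3/5dHet and 1560.5 UMIs in WT, against 1929.5 and 1815 in the other neurons.

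3 of these factors were lower in the Irx3/5dHet library. Lhx1 (ENSMUSG00000018698, minus strand of chromosome 11 from 84518284 to 84525535) had 109 UMIs in 62 Irx3/5dHet neurons and 183 UMIs in 104 WT neurons, or 54.2 against 81.4 CPM (log2 -0.58, -0.94 to -0.24). Six3 (chromosome 17 from 85613608 to 85629302) had 277 UMIs in 140 neurons and 424 UMIs in 203 neurons (log2 -0.45, -0.68 to -0.23). Zic1 had 60 UMIs in 35 neurons and 111 UMIs in 70 neurons (log2 -0.72, -1.20 to -0.26). Six3os1, on the other strand at Six3, had 40 UMIs in Irx3/5dHet and 81 in WT neurons, and Zic4, next to Zic1, had 21 in each. Neurons with Vip, Prok2 or Nms were 20 in the Irx3/5dHet library and 40 in the WT library. Inside them the ratios were -0.46 (-1.31 to 0.31) for Lhx1, -0.47 (-1.05 to 0.08) for Six3 and -1.13 (-2.82 to 0.15) for Zic1. Outside them they were -0.53 (-0.93 to -0.14) for Lhx1, -0.39 (-0.63 to -0.14) for Six3 and -0.60 (-1.12 to -0.10) for Zic1. The intervals inside held 0 and those outside did not. With 1 pan-neuronal gene as the rule for a neuron, Lhx1 was at -0.35 and Zic1 at -0.41, and per neuron in place of per UMI Six3 was at -0.27. With vasopressin neurons also set aside, the ratios were -0.40 (-0.81 to 0.01) for Lhx1, -0.35 (-0.61 to -0.09) for Six3 and -0.39 (-0.98 to 0.18) for Zic1. Inside neurons with Vip, Prok2, Nms or vasopressin, the ratios were -1.14 (-1.91 to -0.45) for Lhx1 and -0.77 (-1.22 to -0.34) for Six3. For Zic1 the ratio there was -1.40 (-2.35 to -0.58). The difference between inside and outside was not tested for either grouping. The values with vasopressin neurons rest on that class as defined, and whether all its neurons make Avp was not tested. Six6 had 187 UMIs in Irx3/5dHet and 239 in WT neurons, a ratio of -0.19 (-0.48 to 0.09). On the other strand at Six6, 4930447C04Rik had 159 UMIs in Irx3/5dHet and 163 in WT neurons.

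Foxb1 (ENSMUSG00000059246, minus strand of chromosome 9 from 69757710 to 69760940), a forkhead factor of the mammillary and premammillary hypothalamus, differed most among the 29. It had 32 UMIs in 16 Irx3/5dHet neurons and 138 UMIs in 47 WT neurons, or 15.9 against 61.4 CPM, a log2 ratio of -1.93 (-2.55 to -1.38). Neurons with Foxb1 were 2.22% (1.28% to 3.58%) of Irx3/5dHet and 5.16% (3.82% to 6.80%) of WT neurons. It was found in 12 of 139 Irx3/5dHet and 20 of 96 WT Cartpt neurons and in 4 of 33 and 10 of 56 Cck neurons. Inside these classes it was at 34.0 against 133 CPM (log2 -1.95, -2.67 to -1.30) and outside them at 4.82 against 38.3 CPM (log2 -2.89, -4.49 to -1.79). Its antisense neighbour B230323A14Rik had 15 UMIs in Irx3/5dHet and 29 UMIs in WT neurons. Of the 31 genes, 17 overlap a gene on the other strand in the GENCODE annotation and 14 do not. Counting by strand is not stated in the sources used here, so reads of such partners cannot be told apart.

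The remaining factors were spread thinly. Sim1, which specifies paraventricular neurons, had 12 UMIs in Irx3/5dHet and 14 in WT neurons and was found in 5 of 33 and 1 of 56 Cck neurons. Fezf1, a zinc finger factor of the ventromedial nucleus, had 11 and 14 UMIs, and Meis2, a cofactor of homeodomain proteins, had 7 and 10. The nuclear receptors Nr2f1 and Nr2f2 had 29 and 42 UMIs (log2 -0.37, -1.11 to 0.34) and 80 and 110 UMIs (log2 -0.30, -0.73 to 0.13). Lmo1, a LIM-only cofactor, had 74 and 78 UMIs and was in 6 of 13 Irx3/5dHet and 2 of 8 WT Th neurons, a class deeper than the rest. None of the intervals of these genes left out 0.

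Promoter windows are shown for Tbx19, which was found in the same neurons as a homeodomain gene, and for Lhx1 and Six6, which were found together in the same neurons in 5 of 7 alternative settings. Many homeodomain proteins bind sequences with a TAAT core. Each line gives the 250 bases before the start in RefSeq's table for GRCm38.p6, read on the gene's own strand, with every TAAT or its reverse complement ATTA in capitals. They are chr1:165160774-165161023 on the minus strand for Tbx19, chr11:84525535-84525784 on the minus strand for Lhx1 and chr12:72939632-72939881 on the plus strand for Six6.
Tbx19: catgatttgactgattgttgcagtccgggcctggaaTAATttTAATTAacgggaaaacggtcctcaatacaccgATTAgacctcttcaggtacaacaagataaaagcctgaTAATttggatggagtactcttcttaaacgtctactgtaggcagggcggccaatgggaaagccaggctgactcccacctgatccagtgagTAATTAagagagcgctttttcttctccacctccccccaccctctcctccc
Lhx1: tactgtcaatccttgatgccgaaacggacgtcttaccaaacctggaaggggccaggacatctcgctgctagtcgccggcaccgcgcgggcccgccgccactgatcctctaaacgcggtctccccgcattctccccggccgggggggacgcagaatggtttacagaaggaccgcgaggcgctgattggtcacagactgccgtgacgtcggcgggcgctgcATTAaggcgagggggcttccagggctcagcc
Six6: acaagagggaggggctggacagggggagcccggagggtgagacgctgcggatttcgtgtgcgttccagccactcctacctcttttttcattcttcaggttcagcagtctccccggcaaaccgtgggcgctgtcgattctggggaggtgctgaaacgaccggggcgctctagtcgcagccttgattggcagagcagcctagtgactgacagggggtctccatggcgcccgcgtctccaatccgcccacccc

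The Tbx19 window held 7 matches of TAAT on either strand, the Lhx1 window 1 and the Six6 window 0. The longer TAATTA, which contains TAAT on both strands, occurred at 2 places in the Tbx19 window. Of 25 factors with a window, 2 held TAATTA (Tbx19 and Lmo1), as did 4.84% of 32851 windows of all genes, and 12 held TAAT, as did 54.9% of all windows. A match is a description of letters, not a site or a cause. Tbx3, Dlx5, Dlx6, Nr5a1, Foxb1 and Foxp2 had no window in the table.

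GABA neurons, with a UMI of Slc32a1, Gad1 or Gad2 and none of Slc17a6, were 357 (49.6%) of Irx3/5dHet and 380 (41.7%) of WT neurons. Glutamate neurons, with a UMI of Slc17a6 and none of those 3, were 111 (15.4%) and 149 (16.4%). Neurons with UMIs of both transmitters' genes were 30 (4.17%) and 33 (3.62%). Those with neither were 222 (30.8%) of Irx3/5dHet and 349 (38.3%) of WT neurons. The latter were shallow, with medians of 1055.5 and 1166 UMIs, and both groups were left out of the comparison. Of 25 factors in at least 10 GABA or glutamate neurons, 12 had a share at least 2 times higher in GABA neurons in each library. They were Tbx3, Isl1, the 4 Dlx genes, Hmx2, Hmx3, Six6, Six3, Zic1 and Tbx19. Only Nhlh2 and Foxb1 leaned to glutamate neurons by the same rule. These counts were not set beside the same counts over all genes, so they are not shown to be particular to the factors. A UMI of any Dlx gene was found in 164 of 357 GABA neurons of the Irx3/5dHet library (45.9%, 40.7% to 51.3%) and in 183 of 380 of the WT library (48.2%, 43.0% to 53.3%). No glutamate neuron had one, 0 of 111 in Irx3/5dHet and 0 of 149 in WT, where 3 neurons of the total, the most a count of 0 was taken to allow, are 2.70% and 2.01%. The exact upper bounds are 3.27% and 2.45%, and both limit neurons with a UMI, not neurons that express the gene. The definition of the classes uses none of these genes. Neurons with UMIs of both transmitters' genes, left out of these classes, did hold Dlx genes. Among them Dlx1 was in 2 of 30 Irx3/5dHet and 4 of 33 WT neurons, and Dlx6 in 1 of 30 and 2 of 33. Dlx2 was in 1 of 30 and 0 of 33 of them, and Dlx5 in none. Median depth was 2687 UMIs in GABA and 1882 in glutamate neurons of the Irx3/5dHet library and 2332.5 and 1932 in WT, so the GABA neurons were the deeper class.

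Nhlh2 was in 20 of 111 glutamate and 3 of 357 GABA neurons of the Irx3/5dHet library, and in 24 of 149 and 1 of 380 in WT. Foxb1 was in 11 of 111 and 2 of 357 in Irx3/5dHet, and in 37 of 149 and 0 of 380 in WT. Within glutamate neurons its level was 87.0 CPM in Irx3/5dHet and 301 CPM in WT (log2 -1.77, -2.49 to -1.15), so the lower Foxb1 level was read in that class as well. Lhx1 did not lean to a side, being in 36 of 357 and 66 of 380 GABA neurons and in 14 of 111 and 21 of 149 glutamate neurons. Within GABA neurons its ratio was -0.95 (-1.41 to -0.50), and within glutamate neurons it was -0.26 (-1.07 to 0.50).

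**Figure D3:**
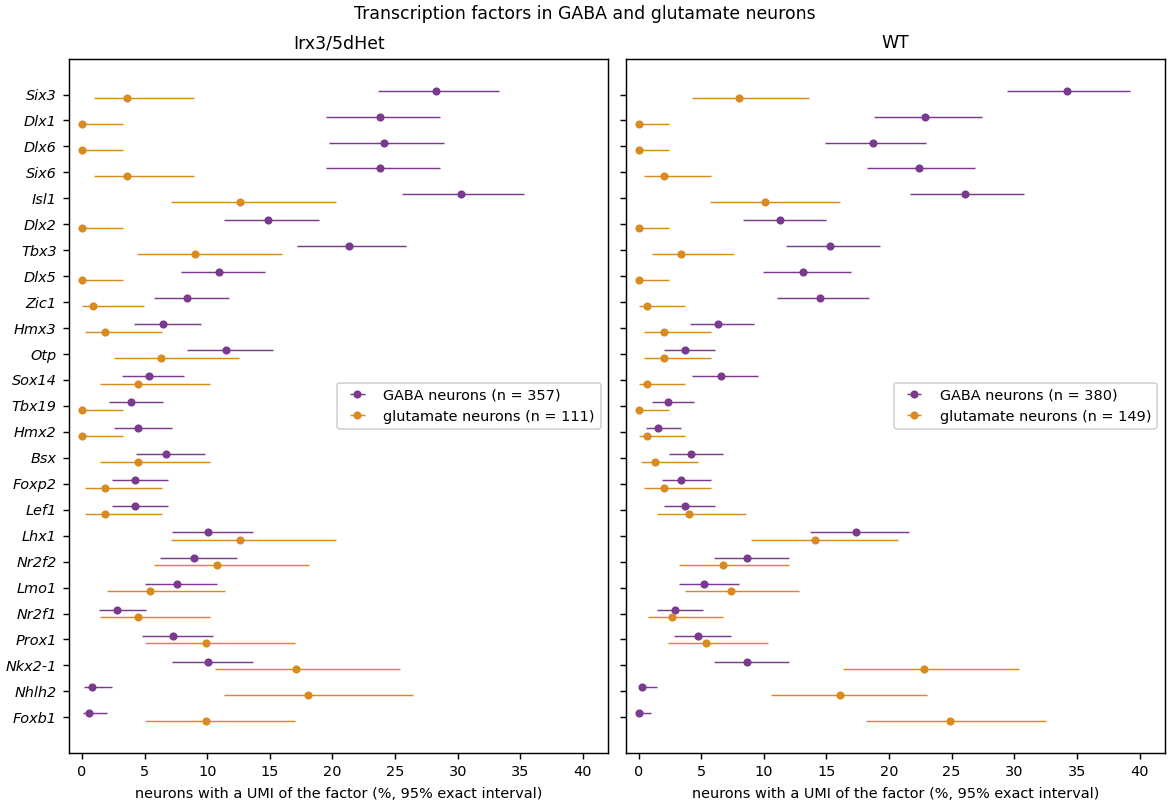
Share of GABA neurons (purple) and glutamate neurons (orange) with a UMI of each of 25 factors, with exact intervals, for Irx3/5dHet on the left and WT on the right. The 4 Dlx genes have no glutamate neuron in either panel, and Nhlh2 and Foxb1 have nearly no GABA neuron.

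In pairs, the 31 factors were set against the number of neurons with both that depth alone would give. Of 465 pairs, 15 were found together at least 2 times as often as that in each library. Under each of 7 alternatives for the depth strata and the cell rules, 5 of these held: Hmx2 with Hmx3, Hmx3 with Tbx19, Isl1 with Lef1, Lhx1 with Foxb1, and Sox14 with Lef1. The neighbours Hmx2 and Hmx3 shared 6 Irx3/5dHet neurons, where 1.42 were given by depth, and 4 WT neurons, where 0.78 were. Sox14 and Lef1 shared 8 neurons against 1.43 in Irx3/5dHet and 7 against 1.49 in WT, and all 15 were GABA neurons.

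Lhx1 was found with different partners in different neurons. With Foxb1 it was in 10 Irx3/5dHet neurons, against 1.62 given by depth, and in 20 WT neurons, against 6.25. Of these, 7 of 10 and 18 of 20 were glutamate neurons and none was a GABA neuron. With Six6 it was in 30 Irx3/5dHet neurons, against 10.7, and in 33 WT neurons, against 15.6, of which 24 and 27 were GABA neurons and none a glutamate neuron. Cartpt at 3 UMIs was found in 9 of 10 and 12 of 20 neurons with Lhx1 and Foxb1, but in 3 of 30 and 1 of 33 with Lhx1 and Six6. Six6 and Foxb1 shared 1 Irx3/5dHet neuron and no WT neuron. Six6 and its sister Six3 shared 58 Irx3/5dHet neurons against 27.8 and 75 WT neurons against 35.0. Under the 7 alternatives, Lhx1 with Six6 held in 5 and Six6 with Six3 in 4.

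Some pairs were rarely found together. For 41 pairs with an expected number of at least 5 over both libraries, no more than 0.5 times that number was seen in each library, a rule set with the data in view. Otp was in 9 of them, including all 4 Dlx genes: Otp and Dlx6 shared 0 Irx3/5dHet neurons where 11.2 were given by depth and 1 WT neuron where 3.22 were. Dlx1 and Nhlh2 shared none in either library, against 7.10 and 5.38. Tbx3 and Lhx1 shared 2 Irx3/5dHet neurons against 10.1 and 1 WT neuron against 13.1. Foxb1 and Isl1 shared none, against 4.47 and 8.13. Such counts come from single UMIs in many neurons and do not show that a factor is absent. The 41 pairs, and the 15 found together, were not set beside the same counts over pairs of other genes. They are therefore not shown to be particular to the factors, and small expected numbers leave room for counting error.

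**Figure D4:**
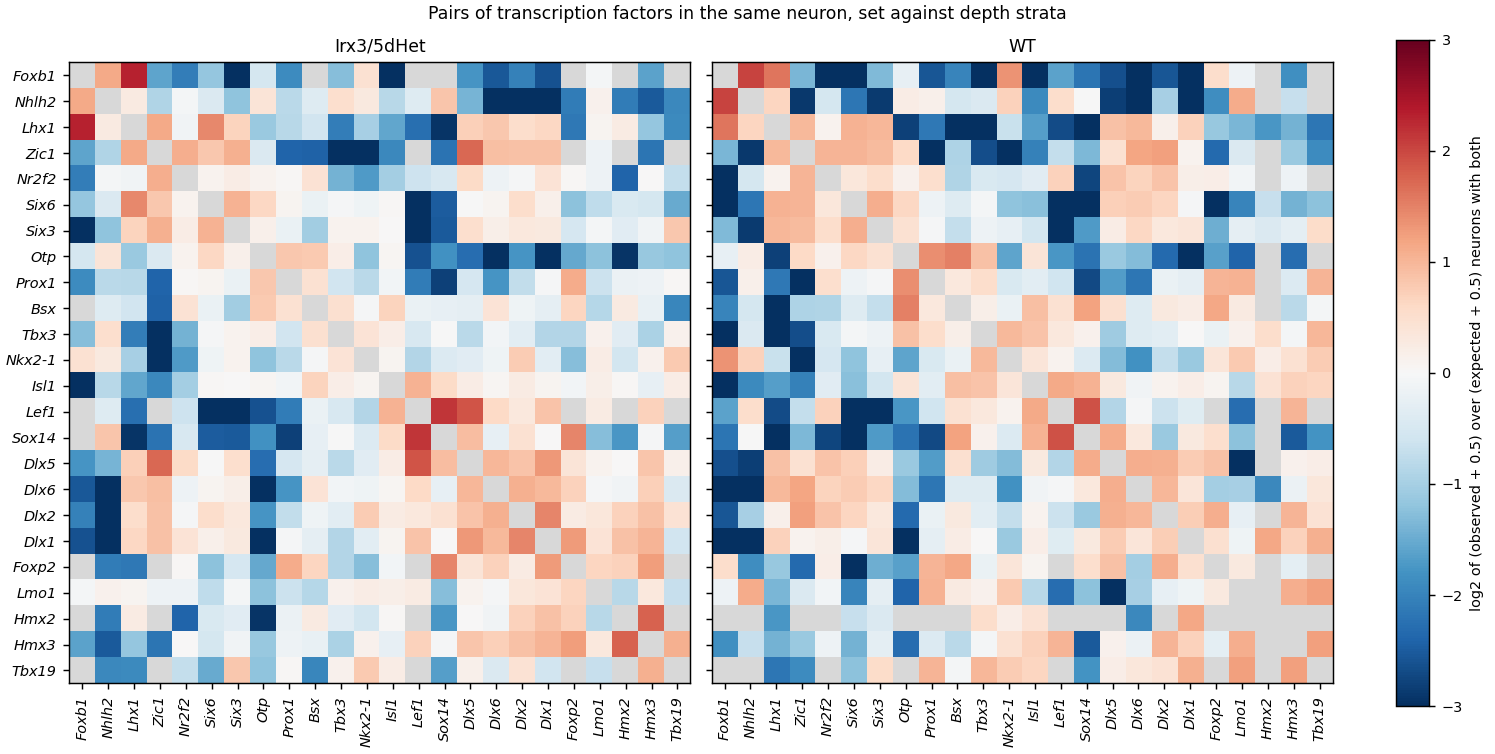
Log2 of the observed over the expected number of neurons with both factors, 0.5 added to each, for pairs of 24 factors with at least 1 expected neuron, for Irx3/5dHet on the left and WT on the right. Red marks more neurons with both than depth gives, blue fewer, grey pairs not shown. The red cells of Foxb1 with Lhx1 and of Sox14 with Lef1, and the blue row of Otp against the Dlx genes, appear in both panels.

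At an equal depth of 1000 UMIs, 68.1% (355 of 521) of Irx3/5dHet and 63.1% (411 of 651) of WT neurons held at least 1 of the 31 factors. A second random draw of the UMIs gave 65.5% and 67.4%, so no order between the libraries was read. Without that thinning the shares were 79.6% and 72.3%. Oligodendrocyte-marked cells thinned to the same depth held one in 12 of 76 Irx3/5dHet and 26 of 157 WT cells, and Prox1 alone had a UMI in 11 and 16 such cells. Within neurons the median number of factors per cell was 1 in both libraries after thinning, with a highest value of 5.

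Of the 29 factors, 13 had over 90% of their UMIs in neurons in both libraries: Otp, Bsx, Dlx1, Dlx5, Dlx6, Prdm12, Nhlh2, Fezf1, Hmx2, Hmx3, Lhx1, Sim1 and Tbx19. For all genes together, neurons held 2010585 of the 2974060 UMIs of all Irx3/5dHet barcodes and 2247690 of 4426817 in WT. Shares in neurons thus start from a different base in each library. The count of 13 was not set beside the same count over all genes. Other factors were also read in cells marked as glia, vessel or connective tissue. Six3 was at 961 CPM in 57 Irx3/5dHet and 645 CPM in 149 WT tanycyte-marked cells, well above its level in neurons. Tbx3 (301 and 247 CPM), Six6 (232 and 173 CPM) and Nkx2-1 (151 and 160 CPM) were found in the same cells. Nr2f2, a regulator of vein identity, reached 880 CPM in Irx3/5dHet and 1061 CPM in WT fibroblast-marked cells. Lef1 was at 370 and 270.0 CPM in endothelial-marked cells, on only 4 and 8 UMIs, with 86.7% and 72.5% of its UMIs in neurons. Six3 was also read in neurons without a UMI of any oligodendrocyte marker or Rax, where its ratio was -0.66 and that of Foxb1 was -2.74. The median ratio over the measured factors was lower in this setting as well. Of the 9 tanycyte markers the setting uses only Rax, which was found in 7 Irx3/5dHet and 24 WT neurons. It cannot show the part of tanycyte RNA in the Six3 ratio, which was not tested.

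**Figure D5:**
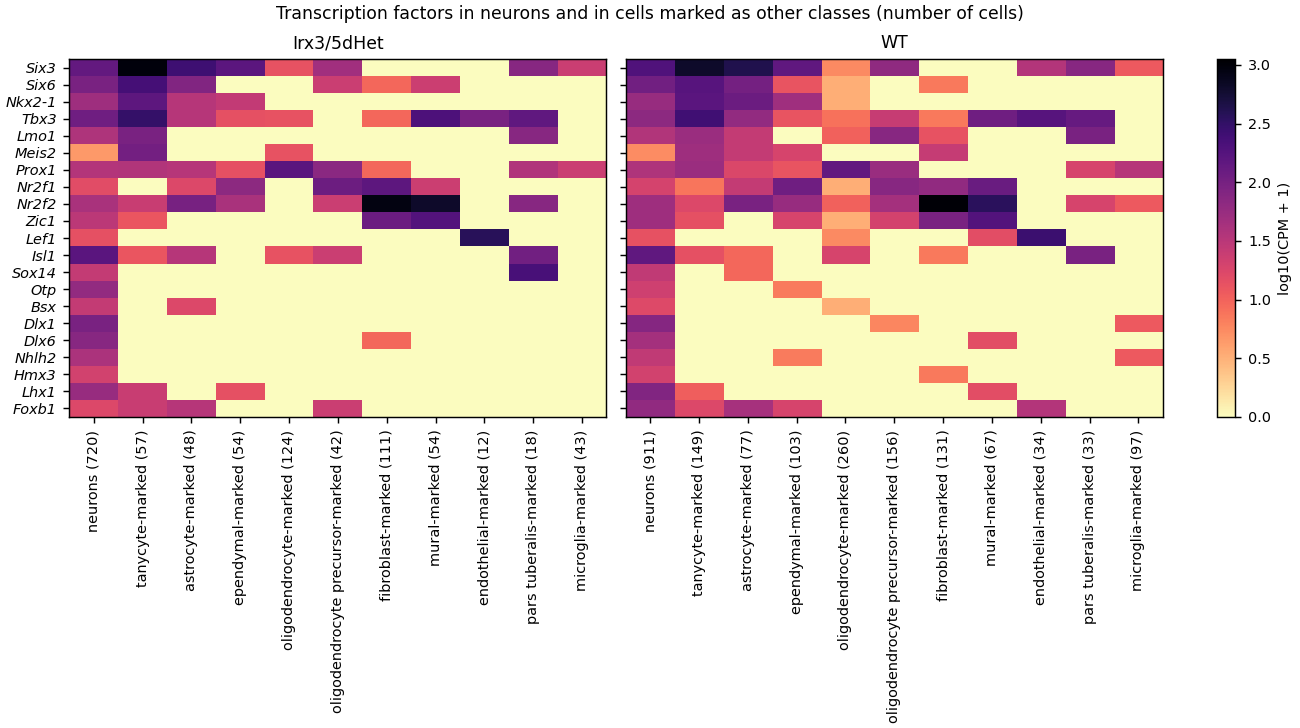
Level of 21 factors, as log10 of CPM plus 1, in neurons and in cells with at least 3 markers of another class, with the number of cells in brackets, for Irx3/5dHet on the left and WT on the right. Six3, Six6, Nkx2-1 and Tbx3 are dark in tanycyte-marked cells, Nr2f2 in fibroblast-marked and mural-marked cells and Lef1 in endothelial-marked cells, while Otp, Dlx1 and Hmx3 are pale or empty outside neurons.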

How the data were processed

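The deposited tables hold raw UMI counts per gene and cell barcode for each library, as whole numbers, and a merged table of natural log normalized values that the authors made, used here only to name the cells they kept. Per the submitters' processing notes, bcl2fastq, Picard, STAR 2.6.0b, Seurat 3 and the build mm10 were used; counting settings, strand and annotation: not given in the sources used here. Used cells had 300 genes or more and no more than 20% mitochondrial UMIs, and neurons needed 2 of 7 pan-neuronal genes. UMIs were summed over the neurons of a library. Intervals are exact conditional binomial for ratios, Poisson for levels and Clopper-Pearson for shares, all at 95%. Each library is 1 sample, so no test was made, and past 2-fold stands in for a call. Python 3.11.15, numpy 2.4.6, scipy 1.17.1, pandas 2.3.3, scanpy 1.11.5 (Scrublet at an expected 5%), matplotlib 3.10.9 and GENCODE M21 were used, and the steps were tested on simulated data. Every factor is accounted for, those with 10 UMIs with values, and up to 6 other transcription factors past 2-fold with the most UMIs were to be named, of which some are not reported here. The members and lists were chosen with earlier results of these data known. Alternatives changed cell rules, scaling, priors, UMI minimums, thinning, strata and peptide limits.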

Additional observations from a re-analysis of the deposited data

How the results depend on the processing

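No paired analysis was possible because each genotype is 1 pooled library. Of 455 ratios of single factors under alternative settings, 448 lay within the counting interval of the reported ratio and none of the called ratios changed sign. The 7 others were Prox1 at 0.35 without neurons with 3 markers of another class, Tbx3 at 1.11 and Dlx6 at 1.31 as a mean over neurons, and Tbx3 at 1.08, Isl1 at -0.15, Dlx2 at -0.27 and Foxb1 at -2.74 without neurons with any oligodendrocyte marker or Rax, a setting added after the data were seen that also put Bsx at 0.10. Otp ran between 1.25 and 1.86, Hmx2 between 1.01 and 1.88 and Foxb1 between -2.74 and -1.65. The count of factors at least 2-fold higher was 4 as a mean over neurons (Tbx3, Otp, Dlx6, Hmx2), and without neurons with any oligodendrocyte marker or Rax 3 were higher (Tbx3, Otp, Hmx2) and 1 lower (Foxb1). The median ratio was -0.22 without neurons with 3 markers of another class and -0.27 without neurons with any oligodendrocyte marker or Rax. The share of thinned neurons with any factor was 60.4% in Irx3/5dHet and 57.2% in WT with 1 pan-neuronal gene, 45.9% and 43.6% at 500 UMIs, and 79.6% and 72.3% with no thinning. In WT it was 67.6% with 3 pan-neuronal genes, 69.0% without neurons with 3 markers of another class and 67.4% in another draw. Combinations of a factor and a class numbered 36 against depth strata, also added after the data were seen, and factor pairs found together 45 with no strata. Where no reason is given, the cause was not tested.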

Other observations

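A list of 46 other transcription factors, among them progenitor, glial and neuronal genes, was read in the same neurons, and 39 had at least 10 UMIs. Of these, 7 had a ratio above 0 and 32 below it, with a median log2 ratio of -0.37 against -0.09 over all genes. At least 2-fold higher in Irx3/5dHet neurons was 1 gene (2.56%, against 3.58% of all genes), and at least 2-fold lower were 9 (23.1%, against 13.2%). The higher one was Gsx1, a homeodomain factor of ventral progenitors, with 31 UMIs in Irx3/5dHet and 11 UMIs in WT neurons (log2 1.61, 0.62 to 2.80). Lower were Nfia, a factor of glial development, with 27 and 70 UMIs (log2 -1.20, -1.91 to -0.55), and Rax, a tanycyte factor, with 11 and 38 UMIs (log2 -1.58). Lhx2, a LIM homeodomain factor, had 13 and 31 UMIs (log2 -1.06). Only 16.0% of Nfia UMIs in Irx3/5dHet and 17.5% in WT cells lay in neurons, and 18.3% and 20.9% of those of Rax. Markers of glia and tanycytes were lower in the Irx3/5dHet neurons as well, and their part in these values was not tested.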
